A study of Mus musculus with 4 samples.

Results

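H3K9me3, trimethylation of lysine 9 on histone H3, was examined over 4 genes of the Sox family in mouse CD8+ T cells. These were Sox5, Sox6 and Sox13, which form the SoxD group, and Sox4, of the SoxC group, out of 21887 protein-coding genes on the assembled chromosomes. The mark was mapped by native ChIP-seq, in which chromatin is cut with micrococcal nuclease without cross-linking. One ChIP library came from naive cells (day 0) and 1 from cells stimulated in vitro through CD3 and CD28, with interleukin-2 (IL-2) added, and taken on day 3. All cells were wild-type C57BL/6, the labels give neither age nor sex, and the 2 input libraries were not analysed here. Each deposited list holds islands, which are runs of enriched 200 bp windows merged into 1 region. For each gene the islands over its body and over 250 kb on each side were taken, 59 of 19989 on day 0 and 82 of 47553 on day 3.

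Sox6 and Sox5 were selected on the length of sequence in their bodies that lay in a day 0 island and in no day 3 island. That length was 88.8 kb in Sox6 and 73.2 kb in Sox5, the second and the sixth highest of 975 named protein-coding genes of 200 kb or more. These values are a description and carry no test. Sox13 and Sox4 were set beside them as relatives. With 1 ChIP library per day, no difference between days has a replicate check and none was tested.

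Sox proteins are transcription factors that bind DNA through an HMG box. SoxD proteins carry a coiled coil through which they pair with one another, and they lack a known activation or repression domain of their own. Sox5 and Sox6 act with Sox9 in cartilage, and Sox6 helps to silence embryonic globin genes in red cell precursors. In T cells, Sox13 and Sox4 are known from the gamma delta lineage, and Sox4 also from thymocyte development. H3K9me3 is a mark of heterochromatin, found over repeats and over many silent genes. Islands do not measure RNA, so neither expression of these genes nor the identity of the cells could be checked from the lists.

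Islands held 3402787 reads in the day 0 list and 10423178 in the day 3 list, not scaled for depth. The median island had a density of 34.1 reads per kb in the day 0 list and 52.9 in the day 3 list. Islands covered 4.08% of the autosomes on day 0 and 8.07% on day 3. The least dense day 3 island held 34.1 reads per kb, and 7 of the 23 day 0 islands in Sox6 and 9 of the 17 in Sox5 were less dense than that. The median of the whole day 0 list was also 34.1, so such islands are common in that list and not particular to these genes. Coverage listed for day 0 alone is therefore no proof that the mark was lost, and a gene without an island may still carry some of it.

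Sox6 (chr7:115470872-116040776, minus strand, 570 kb) was among the long genes with the highest coverage on day 0. Its body held 23 islands over 139 kb on day 0, which is 24.4% of the body, and 28 islands over 156 kb on day 3, which is 27.4%. Sox6 stood at rank 7 of the 975 long genes by share covered on day 0 and at rank 84 on day 3. For the median long gene this share was 3.75% in naive cells (quartiles 1.39 and 6.95) and 6.56% in cultured cells (quartiles 1.86 and 14.4). Of all 990 protein-coding genes of 200 kb or more, 84.4% held at least 1 bp of island on day 0 and 86.2% on day 3. The presence of islands in Sox6 and Sox5 is therefore common for their length. The rank of Sox6 on day 0 is no separate result, since the day 0 coverage includes the length on which the gene was selected.

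Coverage of Sox6 was also high for its surroundings. The body was covered 2.38 times as densely as its 250 kb flanks on day 0 and 2.97 times on day 3. These ratios and their order between days depend on the flank width. Flanks of 250 kb held 51.4 kb of islands on day 0 and 46.0 kb on day 3. Flanks of 100 kb held 15.4 kb on day 0 and 35.0 kb on day 3. Chromosome 7 as a whole was covered over 3.22% on day 0 and 5.22% on day 3, so that the Sox6 body stood at 7.57 and 5.24 times the chromosome. The day 0 ratios are no separate result either, since the coverage on that day includes the length on which Sox6 was selected. The islands in Sox6 held 4883 reads on day 0 (exact 95% Poisson interval 4747 to 5022) and 8929 on day 3 (8745 to 9116). Reads were counted over whole islands that meet the body. The day 3 sum includes all 734 reads of an island at the upstream edge that reaches 0.775 kb into the body. The day 0 island that it overlaps there, with 418 reads, lies outside the body and is not counted. Intervals cover counting error only, and with 1 library per day they hold no variation between samples. They take each read as a separate molecule. PCR copies of 1 molecule cannot be told from separate molecules here, so the intervals may be too narrow.

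**Figure D1:**
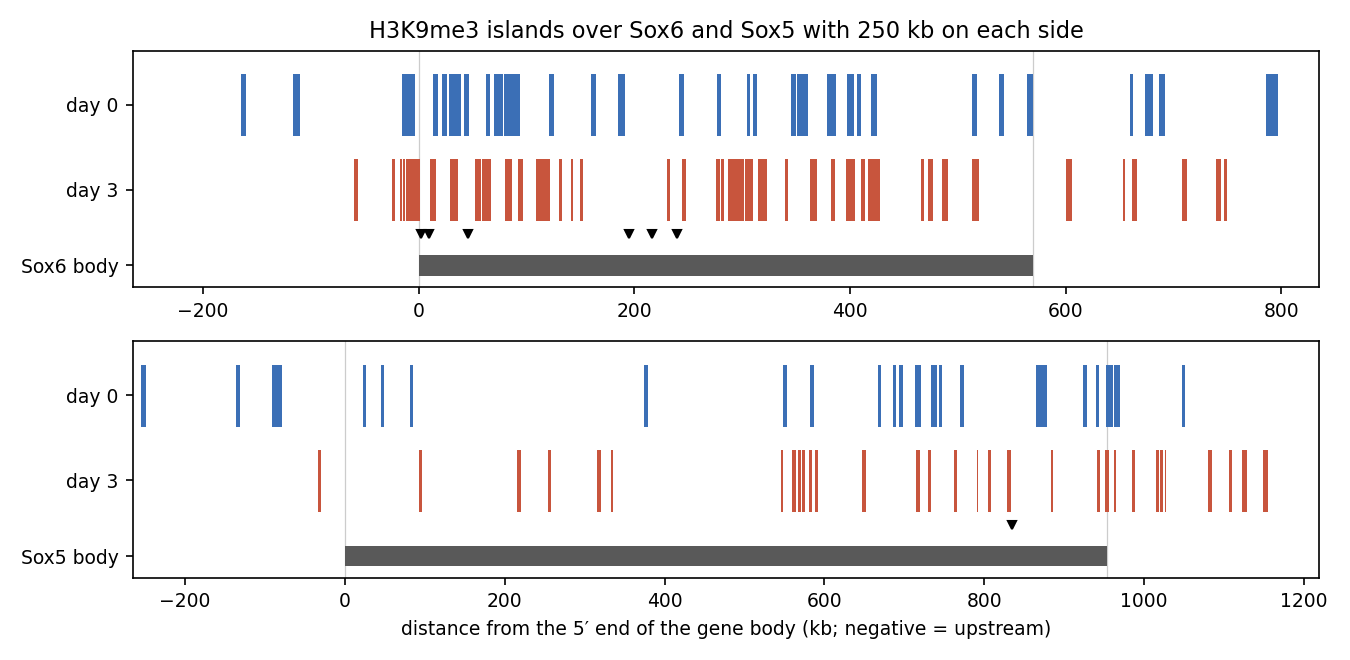
Islands of day 0 (blue) and day 3 (red) along Sox6 (top) and Sox5 (bottom), drawn to scale by distance in kb from the 5′ end of the gene body; grey bars are the bodies and black triangles the start sites listed by RefSeq. Islands are spread along Sox6 on both days, over 24.4% of the body on day 0 and 27.4% on day 3. Sox5 has few towards its 5′ end and more towards its 3′ end.

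The net difference in Sox6 was small beside the turnover of positions. Both days covered 50.4 kb in common, 88.8 kb was covered on day 0 only and 106 kb on day 3 only. The shared bases made up 36.2% of the day 0 coverage and 32.3% of the day 3 coverage. They came to 17.6 kb when islands below their list's median density were dropped. In the median long gene, 8.49% of the day 0 coverage was shared. The body of Sox6 was covered over 27.4% on day 3 and that of the median long gene over 6.56%. These shared percentages are therefore not like for like, and the part of coverage was not tested. The net excess of 16.8 kb on day 3 changed sign when islands were selected differently. It was -15.6 kb when only the 19989 day 3 islands richest in reads were kept, and -18.6 kb with that density limit. The direction of the net change in Sox6 is therefore not settled by these lists. Of all long genes, 64.7% were covered over more bases on day 3 and 25.7% over more on day 0.

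The body was next divided into 10 equal segments of 57.0 kb, numbered from the 5′ end. On day 0 the segments with the highest coverage were 2 (48.1%), 1 (45.3%) and 7 (44.5%), and segment 9 had no island. On day 3 they were 6 (57.1%), 2 (42.8%) and 8 (36.6%), and segment 4 had no island. Segments 1 and 2, the 5′ end of the gene, were thus well covered on both days, at 31.6% and 42.8% on day 3. The largest difference was in segment 6, from 6.4 kb in naive cells to 32.6 kb in cultured cells. Coverage was higher on day 3 in 5 segments and higher on day 0 in 5.

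The 100 kb of Sox6 with the most covered bases lay at the 5′ end on day 0, up to 100 kb from it, and held 53.2 kb of islands. On day 3 it lay 270 to 370 kb from the 5′ end and held 46.0 kb. The longest stretch without an island ran from 425 to 513 kb on day 0 (87.6 kb) and from 152 to 230 kb on day 3 (78.2 kb). On day 3, 3 islands fell wholly inside the stretch that was empty on day 0.

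**Figure D2:**
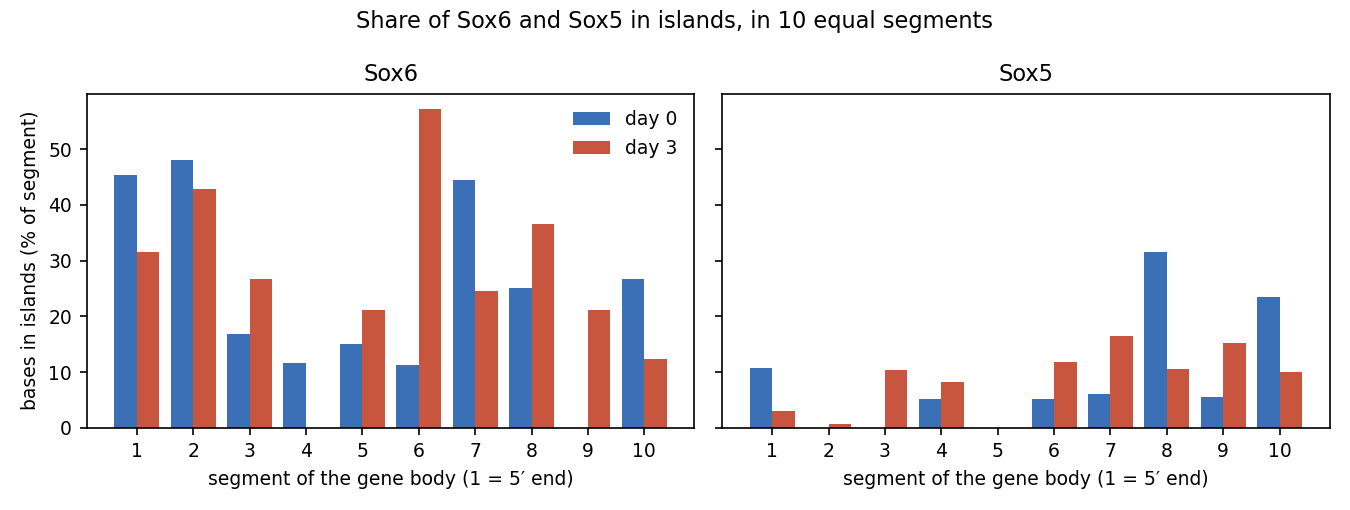
Percentage of each of 10 equal segments of the gene body lying in islands, for Sox6 (left) and Sox5 (right), on day 0 (blue) and day 3 (red); each bar is 1 library. In Sox6, segment 6 is at 11.2% on day 0 and 57.1% on day 3, while segments 1, 2, 4, 7 and 10 are higher on day 0, and in Sox5 segment 8 is highest on day 0 at 31.6%.

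Of the 23 day 0 islands that met the Sox6 body, 12 overlapped a day 3 island (52.2%, 95% Wilson interval 33.0 to 70.8). Over the whole day 0 list, 33.6% did. On day 3, 14 of 28 overlapped a day 0 island (50%, interval 32.6 to 67.4), against 14.9% of the whole list. The 14 include the island at the upstream edge, whose overlap lies outside the body. Islands within 1 gene are neighbours and not independent, and the body is densely covered on both days. Counting near misses, 18 of the 23 day 0 islands lay within 5 kb of a day 3 island, against 49.1% of the list. Of the 28 day 3 islands, 22 lay within 5 kb of a day 0 island, against 25% of the list. The 11 day 0 islands of Sox6 without overlap, an adjoining island included, had a median distance of 3.00 kb to the nearest day 3 island. Over the whole day 0 list the median was 15.8 kb, with adjoining islands left out, so these medians are not quite like for like. Much of what was covered on day 0 only in Sox6 thus lay close to a day 3 island.

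Several Sox6 islands were long. The longest on day 0 (chr7:115946801-115961400, 14.6 kb, 474 reads, interval 432 to 519) lay 79.4 to 94.0 kb from the 5′ end. It was followed after a gap by an island of 8.40 kb with 306 reads. On day 3 the same stretch held islands of 4.4 and 5.6 kb that overlapped the longer one over 7.60 kb. The longest on day 3 (chr7:115739001-115754000, 15 kb, 787 reads, interval 733 to 844) lay 287 to 302 kb from the 5′ end and had no day 0 overlap. Its nearest day 0 island was 2.80 kb away. Islands of 8 kb or longer, a limit set after the values were seen, made up 5 of the 23 Sox6 islands on day 0 and 7 of the 28 on day 3. The 7 include the island of 12.6 kb at the upstream edge, of which 0.775 kb lies in the body. Over the whole lists they made up 6.55% and 5.6%. The day 0 islands include the length on which Sox6 was selected, so their count is no separate result.

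An island pair marked the upstream edge of Sox6 on both days. On day 0 it was chr7:116044601-116056600 (12.0 kb, 418 reads), which began 3.83 kb upstream of the gene body. On day 3, chr7:116040001-116052600 (12.6 kb, 734 reads, interval 682 to 789) reached 0.775 kb into the body. Together with 2 shorter day 3 islands, it covered 85.0% of the day 0 island.

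RefSeq (GRCm38.p6) lists 6 start sites for Sox6, and 1 of them lay inside an island. This is start 3 counted from the 5′ end, 45.7 kb into the body (chr7:115995037-115995336, 250 bases before to 50 after the start). It lay in a day 0 island of 4.8 kb (chr7:115993801-115998600, 172 reads, 35.8 reads per kb), and the nearest day 3 island was 6.44 kb away. Measured from the 300 bases, the outermost start (chr7:116038695-116038994) was 5.61 kb from the nearest day 0 island and 1.01 kb from the nearest day 3 island, the 12.6 kb one at the upstream edge. The second start was 3.8 and 0.597 kb from islands on days 0 and 3. Over 21263 start sites of protein-coding genes, 1.79% met a day 0 island within the 300 bases and 2.82% a day 3 island. The sequences of the covered and the outermost start of Sox6 are shown to compare their content of CG dinucleotides, which are in capitals. They run 5′ to 3′ on the minus strand.
Sox6 start 3, in a day 0 island: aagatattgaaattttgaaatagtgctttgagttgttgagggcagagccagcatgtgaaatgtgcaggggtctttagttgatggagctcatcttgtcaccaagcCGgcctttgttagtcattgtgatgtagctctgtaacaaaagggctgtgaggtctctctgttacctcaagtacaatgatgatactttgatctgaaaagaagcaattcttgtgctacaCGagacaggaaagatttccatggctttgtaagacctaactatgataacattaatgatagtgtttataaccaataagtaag
Sox6 outermost start, no island: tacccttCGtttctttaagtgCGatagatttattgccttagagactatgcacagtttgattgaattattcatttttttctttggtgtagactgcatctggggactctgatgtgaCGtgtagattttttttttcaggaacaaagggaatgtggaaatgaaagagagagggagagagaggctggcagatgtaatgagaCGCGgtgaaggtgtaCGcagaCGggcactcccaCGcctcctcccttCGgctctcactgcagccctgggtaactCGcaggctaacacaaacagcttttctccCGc
The covered start held 2 CG dinucleotides, and 18.1% of all start sites held as few or fewer. The outermost start held 11, close to the median of 13 over all start sites (quartiles 4 and 24). The second held 13, and the other 3 Sox6 starts held 2 to 4 and had no island on either day, so a low count was not particular to the covered start.

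Sox5 (chr6:143828425-144782287, minus strand, 954 kb) was covered more thinly, and almost equally on both days. Its body held 17 islands over 83.8 kb on day 0 (8.78%) and 21 islands over 82.4 kb on day 3 (8.64%). By share covered it ranked 161 of the 975 long genes on day 0 and 404 on day 3. The islands held 3016 reads on day 0 (interval 2909 to 3126) and 4342 on day 3 (4214 to 4473). Chromosome 6 was covered over 4.64% and 8.26%, so that Sox5 stood at 1.89 times its chromosome on day 0 and at 1.05 times on day 3. As in Sox6, the day 0 rank and ratio include the length on which the gene was selected. The day 3 less day 0 difference of -1.40 kb became -33.0 kb with the reduced day 3 list, in which 11 of the 21 day 3 islands of Sox5 remained. That list keeps 19989 of all 47553 day 3 islands, so a loss of islands is not particular to Sox5.

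Coverage in Sox5 was concentrated towards the 3′ end. The 5 segments nearest the 3′ end held 68.6 kb of day 0 islands and 61.2 kb of day 3 islands, and the 5 nearest the 5′ end held 15.2 and 21.2 kb. On day 0 segments 2, 3 and 5 had no island, and the longest stretch without one ran from 84.7 to 374 kb from the 5′ end (289 kb). On day 3 segment 5 had none, and the longest empty stretch ran from 335 to 545 kb (210 kb). In segment 8, 6 day 0 islands covered 30.2 kb and 3 day 3 islands covered 10 kb. Segment 6 went from 5 kb on day 0 to 11.2 kb, and segment 7 from 5.82 to 15.8 kb. In Sox6 the 5 segments nearest the 5′ end held 78.0 kb and the other 5 held 61.2 kb on day 0, and on day 3 they held 69.6 and 86.4 kb.

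Both days covered 10.6 kb of Sox5 in common, or 12.6% of the day 0 and 12.8% of the day 3 coverage. The median long gene shared 8.49% of its day 0 coverage, and its day 3 coverage was 6.56% against 8.64% for Sox5. In Sox5, 5 of the 17 day 0 islands overlapped a day 3 island (29.4%, interval 13.3 to 53.1), close to the 33.6% of the whole list. On day 3, 5 of 21 did (23.8%, interval 10.6 to 45.1), against 14.9%. The median distance from an unshared day 0 island to the nearest day 3 island was 14.2 kb, close to the 15.8 kb of the list. The difference in overlap between Sox5 and Sox6 could not be tested.

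Of the 5 shared day 0 islands of Sox5, the overlaps with day 3 ran from 0.2 to 4.2 kb. At the 3′ end of the gene, chr6:143820801-143829400 (300 reads) on day 0 and chr6:143826601-143831000 (219 reads) on day 3 shared 2.80 kb across the gene border. Further in, chr6:144061801-144069000 on day 0 (7.20 kb, 213 reads) wholly held a day 3 island of 4.20 kb with 223 reads. The other 3 day 0 islands, which began at 143838801, 144041801 and 144195401, overlapped day 3 islands over 2.2, 0.2 and 3 kb. The longest day 0 island of the body, chr6:143904401-143917000 (12.6 kb, 378 reads, interval 341 to 418), had no day 3 overlap, and the nearest day 3 island was 5.40 kb away. The densest cluster on day 3 lay 552 to 652 kb from the 5′ end, with 24.6 kb of islands in 100 kb.

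RefSeq lists 1 start site for Sox5 in the table used, 835 kb from the 5′ end of the body (chr6:143947057-143947356). No island covered it. A day 3 island (chr6:143948401-143954400, 6.00 kb, 286 reads) began 1.04 kb beyond the upstream end of these bases, and the nearest day 0 island was 30.1 kb away. This start is internal to the body, and no start at the 5′ end of Sox5 was listed or examined. The starts of Sox13 and Sox4 lie at or within 0.247 kb of the 5′ end, so the 3 are not like for like. The Sox5 sequence, on the minus strand with CG dinucleotides in capitals, is shown beside those of Sox13 and Sox4, since these 3 starts had no island on either day and differ in CG content.
Sox5 start: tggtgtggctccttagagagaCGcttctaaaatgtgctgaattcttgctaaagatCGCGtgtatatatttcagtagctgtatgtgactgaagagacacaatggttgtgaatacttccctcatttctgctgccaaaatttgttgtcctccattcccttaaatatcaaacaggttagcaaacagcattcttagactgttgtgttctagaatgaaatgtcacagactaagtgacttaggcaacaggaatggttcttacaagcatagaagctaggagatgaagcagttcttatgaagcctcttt
Sox13 start: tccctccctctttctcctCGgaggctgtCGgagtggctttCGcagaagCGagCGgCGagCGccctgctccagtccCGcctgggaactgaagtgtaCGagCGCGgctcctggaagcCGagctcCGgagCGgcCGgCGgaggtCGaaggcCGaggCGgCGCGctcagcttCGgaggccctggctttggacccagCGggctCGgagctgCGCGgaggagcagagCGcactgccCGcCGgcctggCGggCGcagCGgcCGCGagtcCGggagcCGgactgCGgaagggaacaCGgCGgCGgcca
Sox4 start: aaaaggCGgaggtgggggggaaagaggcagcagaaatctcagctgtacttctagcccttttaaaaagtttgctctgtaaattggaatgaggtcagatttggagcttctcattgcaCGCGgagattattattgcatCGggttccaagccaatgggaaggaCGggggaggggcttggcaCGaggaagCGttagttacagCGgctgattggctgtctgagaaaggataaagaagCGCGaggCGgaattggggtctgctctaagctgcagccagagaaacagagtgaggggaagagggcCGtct
The Sox5 start held 3 CG dinucleotides, that of Sox4 held 12 and that of Sox13 held 40. As many or more were found at 5.08% of all start sites for Sox13, 52.8% for Sox4 and 81.9% for Sox5.

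**Figure D3:**
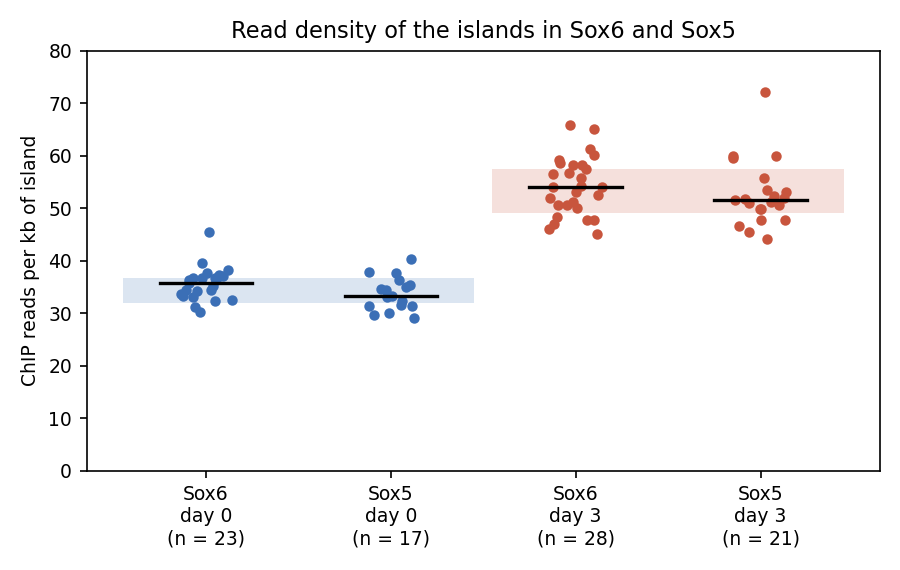
ChIP reads per kb in each island that meets the body of Sox6 or Sox5, by day; points are islands, black lines their medians and shaded bands the quartiles of the whole list of that day, without correction for depth. Sox6 medians are 35.8 and 54.0 and Sox5 medians 33.2 and 51.5 reads per kb, near the middle of each list.

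The islands in both genes were of ordinary density. In Sox6 the median was 35.8 reads per kb on day 0 (range 30.2 to 45.4) and 54.0 on day 3 (45.0 to 65.8), or 1.05 and 1.02 times the list medians. In Sox5 it was 33.2 (29.0 to 40.4) and 51.5 (44.2 to 72.1), or 0.975 and 0.974 times. Among overlapping pairs of islands in the windows, day 3 held a median of 1.56 times the density of day 0 in Sox6 (17 pairs) and also 1.56 times in Sox5 (6 pairs). Over all 7306 pairs in the genome the median was 1.57, so these genes shared the ratio of the libraries, which is not corrected for depth.

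Sox13 (chr1:133382300-133424459, minus strand, 42.2 kb) had no island in its body on either day. Its 250 kb on the downstream side, with Etnk2, Ren1, Kiss1, Golt1a, Plekha6 and Ppp1r15b, were also without an island on both days. Upstream, day 0 islands covered 13.4 kb and day 3 islands 11.9 kb. The nearest island to the body was chr1:133431001-133432800 on day 3 (1.80 kb, 122 reads), 6.54 kb upstream. On day 0 the nearest was 86.3 kb away. The only overlap between days in this window was in Zc3h11a, a zinc finger gene, with 9 kb in the day 0 island and 3.4 kb in the day 3 island.

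Sox4 (chr13:28948919-28953699, minus strand, 4.78 kb) had no island in its body either. A day 0 island of 5.80 kb (chr13:28959401-28965200, 185 reads, interval 159 to 214) lay 5.70 kb upstream of it, over the lncRNA genes Gm46405 and Gm52067. On day 3 the nearest island was 41.5 kb away. In the flanks, 5 day 0 islands covered 26.2 kb and 9 day 3 islands covered 27.2 kb, and none of these overlapped between days. Over the whole lists, 33.6% of day 0 and 14.9% of day 3 islands overlapped, and 5 and 9 islands are too few to read a difference from those shares. Day 3 had 3 islands between 94.9 and 155 kb from the 5′ end on the downstream side, within the lncRNA gene 2610307P16Rik, which has 32.0 kb of day 0 islands and 62.2 kb of day 3 islands over its whole 425 kb body.

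**Figure D4:**
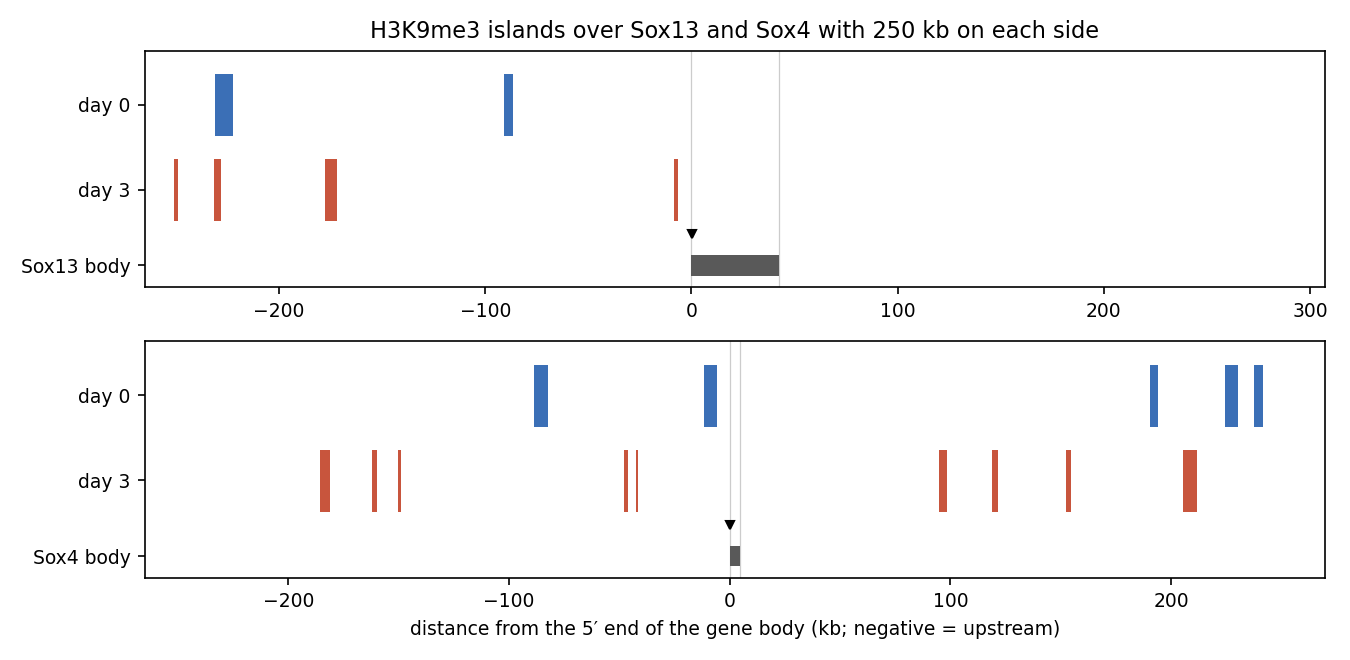
Islands of day 0 (blue) and day 3 (red) around Sox13 (top) and Sox4 (bottom), by distance in kb from the 5′ end of the gene body; grey bars are the bodies and black triangles the listed start sites. Neither body holds an island, and the downstream side of Sox13 holds none on either day.

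The bodies of Sox13 and Sox4 are short, and absence of an island is the usual state for genes of such length. Of the 16942 protein-coding genes under 50 kb, 11.3% met a day 0 island and 15.7% a day 3 island. The difference between Sox6 and Sox13 in presence of islands thus goes with a difference in gene length, and the part of length was not tested.

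The flanks of Sox5 differed between days in opposite directions on the 2 sides. Upstream, 3 islands covered 19.3 kb on day 0 and 1 covered 3.60 kb on day 3. Downstream, coverage was 17.4 kb in naive cells and 36.4 kb in cultured cells, where 9 islands lay wholly outside the gene. The flanks of Sox6 were nearly level, at 23.6 and 23.4 kb upstream and 27.8 and 22.6 kb downstream. Summed over both sides, the difference between days changed sign with the islands or the flank width chosen under at least 1 alternative for each of the 4 genes, with the values in the closing section.

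Other genes in the windows followed the local islands. Within Sox5, the lncRNA genes Gm38531 and Sox5os3 were covered on day 3 only, over 8.80 kb (53.6% of the gene) and 3.60 kb. Gm52484 was covered on both days, over 2.07 and 3.20 kb. Upstream of Sox5, Bcat1, which encodes a cytosolic branched-chain amino acid transaminase, had 6.8 kb covered in naive cells and 2.4 kb in cultured cells. Within Sox6, Gm51455 was covered over 7.03 and 4.22 kb, and Sox6os had no island. Upstream of Sox6, Plekha7, a gene of epithelial cell junctions, was covered over 11.6 kb in naive cells and had no island in cultured cells. The gene 1110004F10Rik on the same side went the other way, with no day 0 island and 3.8 kb (15.9% of its body) in a day 3 island.

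Few of the other Sox genes, which are mostly short, had an island. Of the 16 other members, none had an island on day 0 and only Sox30, a gene of male germ cells, had one on day 3, over 9.60 kb or 24.7% of its body. In all, 2 of 20 Sox genes met a day 0 island and 3 a day 3 island, while 22.7% of all protein-coding genes met one in the day 0 list and 27.1% in the day 3 list. Among the 18 Sox genes under 50 kb the counts were 0 and 1, to be read against 11.3% and 15.7%. Counts this small are not set apart from those shares, and the median length of these genes is only 4.61 kb. Sox17, an endoderm and endothelial factor, came closest without overlap, at 0.374 kb from an island on day 0 and 1.37 kb on day 3. The median Sox gene lay 91.1 kb from the nearest day 0 island and 52.2 kb from the nearest day 3 island. Sox3 and Gata1 lie on chromosome X and Sry on Y, where few islands are listed.

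Genes that work with the members were taken from lists of cartilage, erythroid, T cell and TCF family genes. Of 8 cartilage genes, Col2a1, the main cartilage collagen, was covered over 0.524 kb on day 0, and Col9a1 and Hapln1 over 7.20 and 9.23 kb on day 3. Acan, Comp, Matn1, Col9a2 and Col11a2 had no island. Of 4 erythroid genes, Bcl11a, a repressor that acts on globin genes, was covered over 3.60 kb on day 0 and the embryonic globin gene Hbb-bh1 over its whole body on day 3. Of 5 genes of interleukin-17 producing and gamma delta T cells, Zbtb16 had 3.60 kb on day 3, and Maf, Blk, Il17a and Il17f had none. Of the 4 HMG-box genes of the TCF family, Tcf7l1 had 4.00 kb on day 0 and Tcf7l2 had 5.20 kb on day 3, and the T cell factors Tcf7 and Lef1 had none. Together, 3 of these 21 genes met a day 0 island and 5 a day 3 island. These counts are not set apart from the background, which is 22.7% and 27.1% over all protein-coding genes and 11.3% and 15.7% over those under 50 kb.

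Genes whose coverage was most like that of Sox6 and Sox5 were found among the long genes by the distance between their shares covered on the 2 days. Nearest to Sox6 were Focad (19.6% on day 0 and 26.9% on day 3), Angpt1 (24.5% and 32.7%), Prkdc (23.4% and 22.1%), Dlg1 (24.6% and 34.0%) and Chd9 (17.9% and 26.1%). All 5 were shorter than Sox6, at 205 to 316 kb, and the nearest was 4.86 percentage points away. The share of day 0 coverage that was also covered on day 3 ran from 17.9% to 42.6% in these genes, a range that holds the 36.2% of Sox6. Nearest to Sox5 were Slc24a3 (9.02% and 8.73%), Pdgfd (8.36% and 8.42%), Kctd8 (8.26% and 8.86%), Ptprr (9.19% and 9.04%) and Ttc7b (8.63% and 7.91%), all within 0.744 percentage points.

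**Figure D5:**
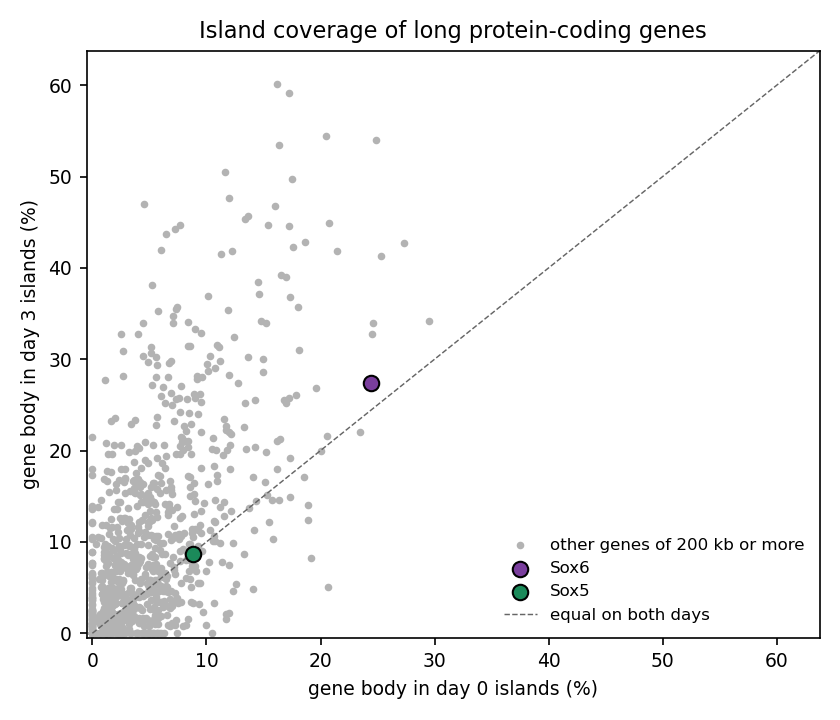
Percentage of the gene body in islands on day 0 (x axis) and day 3 (y axis) for 975 named protein-coding genes of 200 kb or more; each grey point is a gene and the dashed line marks equal shares. Sox6 lies at 24.4% and 27.4%, far to the right among the genes, and Sox5 at 8.78% and 8.64% within the main cloud.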

How the data were processed

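H3K9me3 native ChIP-seq islands of 2 libraries, 1 per day, were analysed. The submitters' processing notes name Bowtie2, SICER 1.1 and the build mm10, while the calling threshold, gap size, handling of duplicates and use of the input were not given in the sources used here. Each island in the deposited lists carries 1 whole-number count, read as ChIP reads and not scaled by the authors for depth, length or input as far as the values show. Mapped reads per library were not stated either, so precision is known only from the reads inside islands.

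Island borders were converted to 1-based coordinates. Gene bodies and start sites came from RefSeq tables of GRCm38.p6 (mm10 is its other name), and all 4 members were matched by symbol. The strand came from the start site table, and the 5′ end of a body is the end given by the gene table. Covered bases, overlaps (at least 1 bp) and distances were computed with Python 3.11.15, NumPy 2.4.6 and pandas 2.3.3. The code was tested on simulated islands. Intervals are 95% Wilson for shares and exact Poisson for read counts. No test was made with 1 library per day. Alternatives were equal list lengths, a limit on read density, flanks of 100 kb, an overlap of 50% and a minimum of 10% of a body.

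The members and lists were chosen with earlier results of these data known. Named were the 4 members, the other Sox genes, lists of cartilage, erythroid, interleukin-17 and gamma delta T cell, and TCF family genes, genes meeting the windows, and the 5 long genes nearest to Sox6 and to Sox5. One listed gene is not reported here. Islands named singly were picked after their values were seen.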

Additional observations from a re-analysis of the deposited data

How the results depend on the processing

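Absence of islands in the bodies of Sox13 and Sox4 held with the day 3 list reduced to the day 0 number of islands and with the limit on read density. For the other differences in covered length (day 3 less day 0), the reduced day 3 list gave -33.0 kb instead of -1.40 kb in Sox5 and -15.6 kb instead of 16.8 kb in Sox6. In the flanks it gave -18.5 kb instead of 3.31 kb (Sox5), -18.6 kb instead of -5.38 kb (Sox6), -7.80 kb instead of -1.54 kb (Sox13) and -15.0 kb instead of 1 kb (Sox4). That list is shorter by construction and keeps islands of at least 204 reads. Islands of at least the median density of their list gave -18.6 kb in the Sox6 body, and 4.02 kb in the flanks of Sox6 and 1.86 kb in those of Sox13. Flanks of 100 kb gave -10 kb for Sox5, 19.6 kb for Sox6 and -5.80 kb for Sox4. Where no construction is named, the cause was not tested. Of 21 day 0 islands in the windows that overlapped a day 3 island, 13 did so over at least 50% of their length. With the density limit 9 day 0 and 11 day 3 islands were shared, instead of 21 and 24, among fewer islands. Asking for 10% of the body left 1 Sox gene on day 0 in place of 2. The remaining alternatives kept the direction. Their size was judged by a 95% binomial interval over 200 bp windows or, for counts, by a factor of 1.5. The interval treats windows as independent, although islands are runs of windows, so it is a rough guide and no test. That interval is wide beside small differences: with the density limit the Sox5 body gave -6.38 kb instead of -1.40 kb, its flanks 5.78 kb instead of 3.31 kb and the flanks of Sox4 3.2 kb instead of 1 kb, and flanks of 100 kb gave -2.6 kb for Sox13. The 5 segments of Sox5 nearest the 3′ end held between 69.6% and 81.9% of its coverage in every setting run on either day. With the density limit, day 0 islands covered 87.0 kb of Sox6 and day 3 islands 68.4 kb, with 28.8 and 22.4 kb in Sox5, since fewer islands remain. No paired analysis was possible because there is 1 library per day. Depth limits all comparisons between days, since the lists are not scaled for it.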
